A study of Mus musculus with 4 samples.

Results

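Tubulin isotypes were examined in bulk RNA-seq of mouse neurons as the 10 listed alpha and beta tubulin genes: Tuba1a, Tuba1b, Tuba1c, Tuba4a, Tubb2a, Tubb2b, Tubb3, Tubb4a, Tubb5 and Tubb6. The set is defined by a list of gene symbols. All 10 were found among the 34968 symbols shared by the libraries, and all 10 passed the filter on low values. The study compared neurons derived from 2 ES cell lines to ask what the transcription factor St18 changes in cells of medial ganglionic eminence type. Both lines came from a Dlx6-Cre; Ai9 parental line of strain C57/BL6, and both carried Nkx2-1 under Nestin control together with a tetracycline transactivator that drives Dlx2. The N/D line carried no more than these, and the N/D/S line carried V5-tagged St18 in the same cassette as Dlx2. According to the study's methods, colonies were selected as clones, and the number of clones behind each line was not given in the sources used here, so an effect of St18 and a difference between clones cannot be told apart. Cells were differentiated for 12 days as embryoid bodies with the Wnt inhibitor XAV-939 and the hedgehog agonist SAG, and tdTomato+ neurons were sorted. Each line gave 2 libraries, replicate 1 and replicate 2, and nothing in the labels says that they came from separate differentiations, so the spread between them may be technical.

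Alpha and beta tubulin pair as a heterodimer, and heterodimers polymerise into microtubules, the tracks and struts of migrating cells and growing axons. Vertebrates carry several genes for each partner, whose proteins are nearly alike except at their acidic carboxy-terminal tails, where motors, severing enzymes and tubulin-modifying enzymes act. In the developing brain, Tuba1a is the chief alpha isotype of newborn neurons, Tubb3 is used as a marker of neurons, and variants of TUBA1A, TUBB2B, TUBB3 and TUBB5 cause malformations of cortical migration in people.

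The coding sequence of the beta tubulin tails is shown because this is where the isotypes part, and because the likeness of some pairs limits how far their transcripts can be told apart. The last 63 coding bases, stop codon included, were read from GENCODE M21 transcripts on GRCm38 and are written 5′ to 3′ on the coding strand. Capitals mark bases that do not match Tubb2a in a gapped alignment of the whole coding sequences. All of these stretches lie in the last coding exon.
Tubb2a, chr13:34074468-34074530, minus strand: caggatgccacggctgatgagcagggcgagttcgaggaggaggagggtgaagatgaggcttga
Tubb2b, chr13:34127471-34127533, minus strand: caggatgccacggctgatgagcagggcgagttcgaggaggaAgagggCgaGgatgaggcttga
Tubb3, chr8:123421620-123421682, plus strand: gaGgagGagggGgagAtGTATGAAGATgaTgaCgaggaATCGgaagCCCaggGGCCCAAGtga
Tubb4a, chr17:57080690-57080752, minus strand: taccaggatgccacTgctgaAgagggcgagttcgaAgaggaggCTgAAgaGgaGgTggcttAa
Tubb5, chr17:35834982-35835044, minus strand: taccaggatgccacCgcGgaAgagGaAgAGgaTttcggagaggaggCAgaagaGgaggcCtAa

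The tails of Tubb2a and Tubb2b differed at 3 of these bases, whereas Tubb3 differed from Tubb2a at 31. Over the whole coding sequence, Tuba1a was 98.3% identical to Tuba1b and 97.1% identical to Tuba1c, and Tubb2a was 96.5% identical to Tubb2b. The identity of Tubb3 with Tubb2a was 83.5%, and that of Tuba1a with Tubb3 was 56.0%. Likeness matters here because kallisto assigns reads by the short words of 31 bases that they share with transcripts. Of the 31-base words in Tuba1a transcripts, 77.0% also occurred in another gene, and 59.4% occurred in another of the 10 tubulins. The corresponding share with the other tubulins was 63.5% for Tuba1b, 53.8% for Tuba1c, 51.1% for Tubb2a and 35.2% for Tubb2b. It was between 0 and 3.21% for Tuba4a, Tubb3, Tubb4a, Tubb5 and Tubb6. The split among Tuba1a, Tuba1b and Tuba1c, and that between Tubb2a and Tubb2b, are therefore uncertain, and their sums are given beside them.

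**Figure D1:**
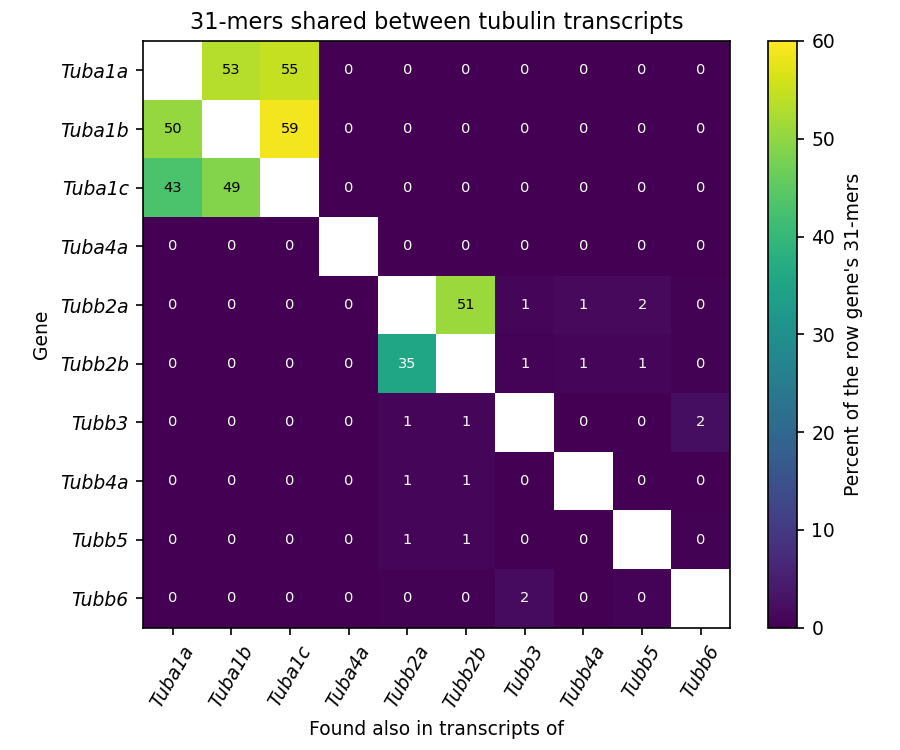
Share of each gene's 31-base words, in percent, that occurs in the GENCODE M21 transcripts of each other tubulin. Tuba1a, Tuba1b and Tuba1c form a block with values from 43.0 to 59.0, Tubb2a and Tubb2b form another, and the other isotypes share at most 2.30% with any gene of the set.

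Beyond the 10 tubulins, 10 symbols shared at least 10% of the 31-base words of a member, 9 with Tuba1a, Tuba1b and Tuba1c and 1, Tubb2a-ps2, with Tubb2a and Tubb2b. Their summed level was 584 and 304 TPM in N/D and 603 and 348 TPM in N/D/S, in replicate order. This was 2.21%, 1.43%, 2.04% and 1.48% of all tubulins and near copies together, so little of the signal was assigned to them. Most of it was Gm3226, with 473, 267, 477 and 305 TPM in the same order.

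Levels are given in TPM, an estimate of transcript abundance scaled to transcript length and to the library total. Read counts cannot be recovered from it, and sequencing depth is therefore unknown. The library labelled N/D replicate 1 stood apart: 9.99% of the 6139 genes that reached 10 TPM in all 3 other libraries had a value of 0 there, against at most 0.0434% in the same comparison for any other library. None of the 10 tubulins was at 0 in any library. The labels could not be checked on St18, which had 28.5 and 26.6 TPM in N/D and 44.4 and 15.9 TPM in N/D/S, so the direction of every difference rests on the labels. Neuronal markers were present, with a sum over 14 genes between 2382 and 2964 TPM in 3 libraries and 1271 TPM in N/D/S replicate 2. Some markers of other cell types differed by replicate number. The sum of 4 pluripotency markers was 0.247 and 3.50 TPM in the replicate 1 libraries and 184 and 291 TPM in the replicate 2 libraries, N/D first, and the sum of 6 markers of the oligodendrocyte lineage was 0 and 17.9 TPM against 194 and 62.1 TPM. Astrocyte markers summed to 5.31 and 1.97 TPM against 27.1 and 25.6 TPM, and mesenchyme markers to 0.0778 and 7.25 TPM against 44.0 and 25.4 TPM. In N/D replicate 1, 3 of 4 pluripotency, 6 of 6 oligodendrocyte, 3 of 4 astrocyte and 2 of 5 mesenchyme markers were listed at 0. The replicate 1 side of this division therefore rests largely on N/D/S replicate 1. The sums for endothelium and blood, between 5.21 and 39.8 TPM, and for neural progenitors and cycling cells, between 277 and 439 TPM, did not divide in this way. In bulk samples, fewer cells of a type and less RNA per cell cannot be told apart.

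The 10 genes made up 2.61% and 2.12% of all TPM in N/D, and 2.92% and 2.35% in N/D/S. Tuba1a had the highest TPM of any symbol in both replicate 1 libraries and the second highest in both replicate 2 libraries. Averaged over the 4 libraries (SD, n = 4), Tuba1a had 17397 ± 2597 TPM, Tubb3 2197 ± 546, Tubb2a 1766 ± 231, Tubb5 1336 ± 281 and Tuba1b 892 ± 245. They were followed by Tubb2b with 459 ± 199 TPM, Tubb4a with 384 ± 37.9 and Tuba1c with 298 ± 142, and by Tubb6 and Tuba4a with 17.2 ± 15.6 and 3.57 ± 2.36. The range of Tuba1a did not overlap that of Tubb3, nor did that of Tuba1b overlap Tubb2b or that of Tuba1c overlap Tubb6. The ranges of all other neighbours in this order overlapped.

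**Figure D2:**
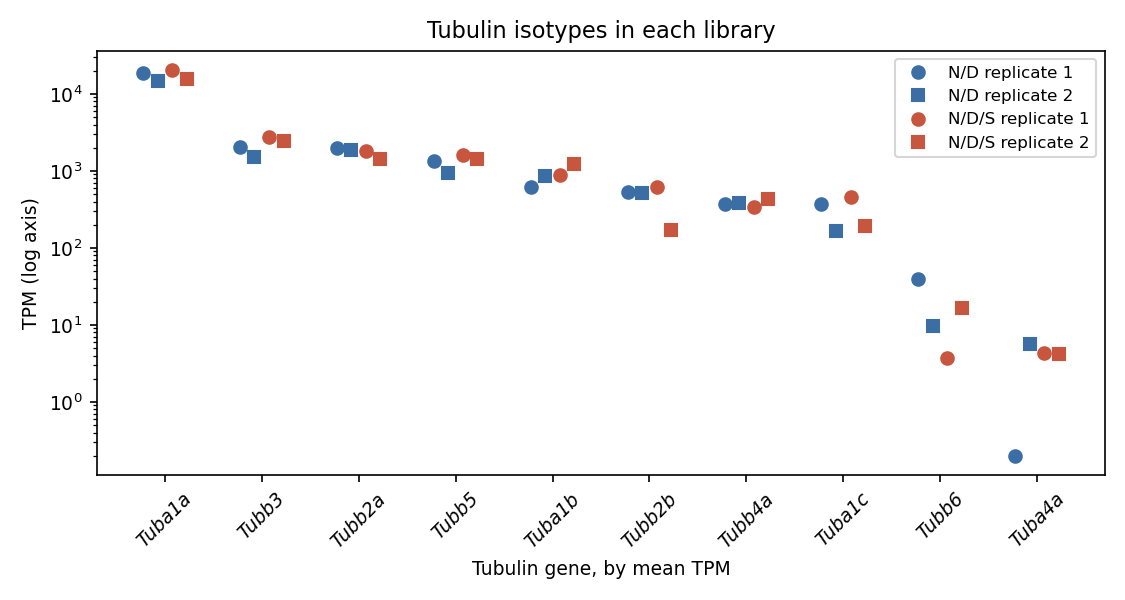
TPM of each tubulin gene on a log axis, in order of mean level, with 1 point for each library (circles replicate 1, squares replicate 2, blue N/D, red N/D/S). Tuba1a lies between 14711 and 20452 TPM in every library, above all other isotypes, and Tubb3 and Tubb5 lie higher in both N/D/S libraries than in both N/D libraries.

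The balance of alpha to beta transcripts hardly varied. Alpha tubulins held 75.6% and 75.0% of the summed tubulin TPM in the N/D libraries and 75.2% and 74.5% in the N/D/S libraries. The ratio of alpha to beta TPM was 3.10 and 3.01 in N/D against 3.04 and 2.92 in N/D/S. These shares do not depend on scaling between libraries. The alpha share was 0.486 percentage points lower in N/D/S, with overlapping groups (p = 0.667, exact permutation test, two-sided). It ranged from −0.107 with N/D/S replicate 2 left out to −0.865 with N/D/S replicate 1 left out. With 2 libraries against 2, the smallest p that this test can give is 0.333, so it cannot reach 0.05. The summed tubulin level was 25856 and 20963 TPM in N/D and 28971 and 23208 TPM in N/D/S. It was 1.11-fold in N/D/S relative to N/D, 0.16 on the log2 scale, with overlapping groups (p = 0.667, exact permutation test, two-sided). Without N/D/S replicate 1 this difference was −0.0046 on the log2 scale.

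Within beta tubulin, the N/D/S libraries held a larger share of Tubb3 and a smaller share of Tubb2a than either N/D library. Tubb3, the neuron-specific isotype, held 32.5% and 28.8% of the summed beta TPM in N/D and 38.6% and 41.4% in N/D/S. Its share was thus higher in both N/D/S libraries than in both N/D libraries, by 9.37 percentage points on average. Of the 14 neuronal markers, 10 had a log2 fold change below 0, as had 5008 of the 12975 genes tested. Their median was −0.35 beside 0.26 for all genes tested, or −0.56 beside −0.29 without N/D replicate 1. Their sum was 2860 and 2382 TPM in N/D and 2964 and 1271 TPM in N/D/S, so only N/D/S replicate 2 was low. The Tubb3 share exceeded both N/D values in N/D/S replicate 1, where the sum was highest, and in replicate 2, where it was lowest. The part of neuronal content was not tested. Tubb2a, a main beta isotype of brain, held 31.1% and 35.5% in N/D and 25.3% and 24.2% in N/D/S. That share was lower in both N/D/S libraries, by a mean of −8.60 percentage points. Tubb2b, which is required for cortical neuron migration, held 8.34% and 9.89% in N/D and 8.68% and 2.86% in N/D/S, and its groups overlapped. Since Tubb2a and Tubb2b share much sequence, they were also summed. Their joint share was 39.4% and 45.4% in N/D and 34.0% and 27.02% in N/D/S, a difference of −11.9 percentage points without overlap. Tubb5, the widely expressed isotype that is also abundant in progenitors, held 21.6% and 18.1% in N/D and 22.5% and 23.9% in N/D/S, 3.39 percentage points more in N/D/S, without overlap. Tubb4a, which is enriched in the nervous system, held between 4.80% and 7.40%, and Tubb6, best known outside the brain, held at most 0.624%.

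For the shares of Tubb3, Tubb2a and Tubb5, and for the joint share of Tubb2a and Tubb2b, the exact permutation test gave its smallest possible p of 0.333, two-sided. Shares were tested for all 10 isotypes, and they are not independent, since a larger share of one leaves less for the others. Labels given at random would leave a share without overlap at a rate of 0.333. Tubb3, Tubb2a and Tubb5 are about that fraction of the 10 isotypes, so their number is near what chance gives. Since these groups did not overlap, the direction is fixed for every pair of libraries and for every library left out, and only the size is informative. Taking N/D from N/D/S at the same number gave 6.15 percentage points for Tubb3 in replicate 1 and 12.6 in replicate 2, −5.83 and −11.4 for Tubb2a, and 0.992 and 5.78 for Tubb5. With each library left out in turn, the difference was 7.54 to 11.2 percentage points for Tubb3 and −10.8 to −6.39 for Tubb2a. For Tubb5 it was 1.68 percentage points with N/D replicate 2 omitted and 5.09 with N/D replicate 1 omitted.

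**Figure D3:**
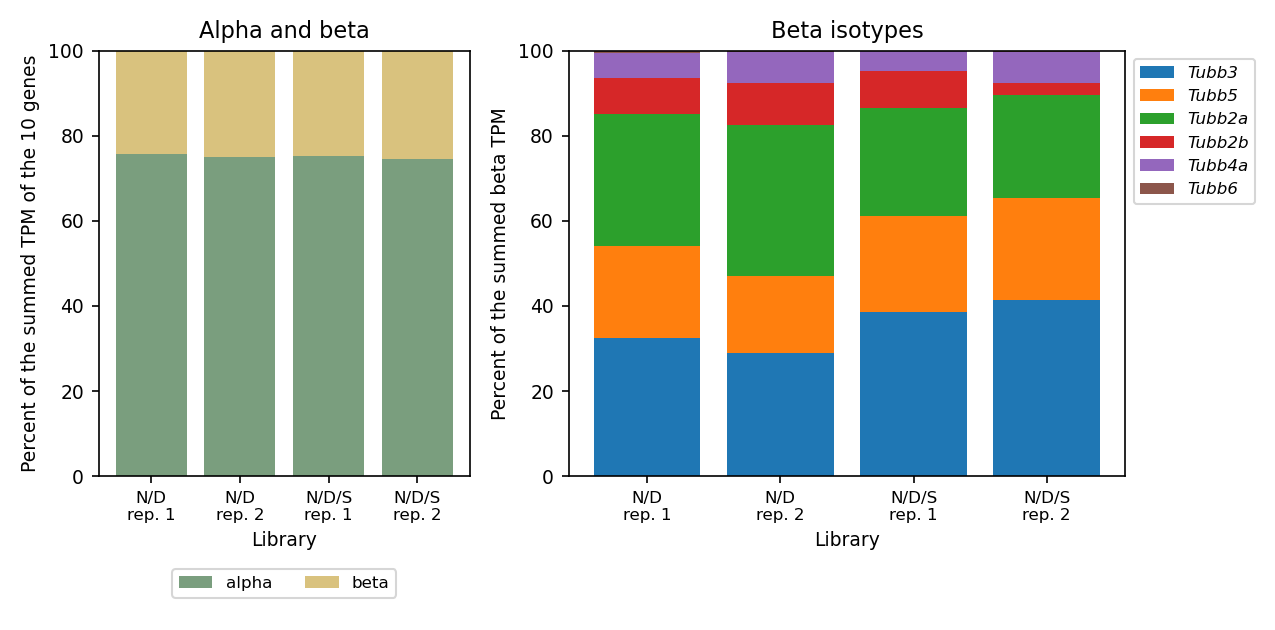
Stacked bars of the share of alpha and beta tubulins in the summed TPM of the 10 genes (left) and of each beta isotype in the summed beta TPM (right), in percent, 1 bar for each library. The alpha share stays between 74.5% and 75.6%, and the Tubb3 segment is taller in both N/D/S libraries, at 38.6% and 41.4%, than in both N/D libraries.

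The ratio of Tubb3 to Tubb2a, chosen after the values were seen, expresses this shift for each library. It was 1.04 and 0.812 in N/D and 1.53 and 1.72 in N/D/S. Tubb2a was thus the more abundant of the pair in N/D replicate 2 alone. The ratio of Tubb3 to Tubb5 moved less, from 1.51 and 1.59 in N/D to 1.71 and 1.73 in N/D/S. In the GENCODE M21 transcripts, neither Tubb3 nor Tubb5 shared more than 3.21% of its 31-base words with the other members, whereas Tubb2a shared 51.1%.

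Within alpha tubulin, Tuba1a held 94.9% and 93.5% of the alpha TPM in N/D and 93.8% and 91.8% in N/D/S. Tuba1b, an isotype of wide expression, held 3.20% and 5.39% in N/D and 4.02% and 7.06% in N/D/S. Tuba1c, also widely expressed, held 1.90% and 1.06% against 2.12% and 1.12%. The groups overlapped for each of them (p = 0.667 for Tuba1a, Tuba1b and Tuba1c, exact permutation test, two-sided). Together these isotypes were at least 99.96% of the alpha TPM in every library, since Tuba4a, an isotype of mature neurons, muscle and platelets, was nearly absent.

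Gene by gene, the lines were compared with limma on log2(TPM + 1) over the 12975 genes that reached 1 TPM in 2 or more libraries, and p-values were adjusted over all of them by the method of Benjamini and Hochberg. The test called 0 of the 10 tubulins at an adjusted p under 0.05, and 0 of all genes (0%). At an unadjusted p under 0.05 it called 0 tubulins, and 8 of all genes (0.0617%). The median log2 fold change, positive where N/D/S was higher, was 0.19 for the tubulins, 0.26 for all genes tested and −0.05 for the 1776 of them with a mean of at least 100 TPM. Without N/D replicate 1 these medians were 0.14, −0.29 and −0.07, so the order of the tubulins and all genes turned. Quantile normalization moved the median of all genes to −0.05. The spread between libraries of a line differed among the tubulins. The median residual standard deviation on the log2 scale was 0.30 for the 10 tubulins, 0.49 for those 1776 genes, and 1.03 for all genes tested. Tubb6 and Tuba4a, at 1.35 and 1.24, lay above the median of all genes, and Tubb2b and Tuba1c, at 0.94 and 0.85, above that of the 1776. The standard errors of the fit, near 1 on the log2 scale, follow the spread of all genes, and the 95% confidence intervals below do so too.

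Tubb3 had 2048 and 1509 TPM in N/D and 2774 and 2455 TPM in N/D/S. The groups did not overlap, and the log2 fold change was 0.57 (SE 0.96, 95% confidence interval −1.70 to 2.84, limma adjusted p = 1.00). Leaving out N/D replicate 2 gave 0.35, and leaving out N/D replicate 1 gave 0.79. Tubb5 had 1358 and 949.6 TPM in N/D and 1618 and 1418 TPM in N/D/S, a log2 fold change of 0.42 (SE 0.97), again without overlap. The same omissions gave 0.16 and 0.67, and the value became −0.040 when each library was centred on tested genes of like transcript length. Tuba1b had 625 and 848 TPM in N/D and 876 and 1219.5 TPM in N/D/S, a log2 fold change of 0.50 (SE 0.97), without overlap, with values from 0.27 (N/D/S replicate 2 left out) to 0.74 (N/D/S replicate 1 left out). Tubb2a had 1960 and 1859 TPM in N/D and 1814 and 1431 TPM in N/D/S, a log2 fold change of −0.24 (SE 0.96), with both N/D/S libraries below both N/D libraries. Its value moved to −0.073 when N/D/S replicate 2 was left out, and to −0.42 when N/D/S replicate 1 was. Thus 3 tubulins lay above without overlap and 1 lay below, where 8.69% and 8.23% of all genes tested did so. Against N/D replicate 2 alone, 5 tubulins were higher in both N/D/S libraries (13.3% of all genes tested) and 2 were lower in both (31.9%).

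Tuba1a had 18558 and 14711 TPM in N/D and 20452 and 15866 TPM in N/D/S, and its groups overlapped. Its log2 fold change was 0.12 (SE 0.96, 95% confidence interval −2.15 to 2.40), and it was −0.043 when N/D replicate 2 was left out and −0.059 when N/D/S replicate 1 was. Tubb4a was the steadiest of the 10, with 371 and 387 TPM in N/D and 345 and 435 TPM in N/D/S, a 1.26-fold range and a log2 fold change of 0.03 (SE 0.96). Tubb2b had 526 and 517 TPM in N/D and 623 TPM in N/D/S replicate 1, but 169.5 TPM in N/D/S replicate 2. With the low value of that library included, it had a log2 fold change of −0.68 (SE 1.08), which was 0.26 with the library left out. Tuba1c had 371 and 167 TPM in N/D and 462 and 193 TPM in N/D/S, a log2 fold change of 0.26 (SE 1.06). It was −0.31 when N/D replicate 2 was left out and −0.36 when N/D/S replicate 1 was.

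Tubb6 and Tuba4a were the least abundant and the most variable. Tubb6 had 39.3 and 9.55 TPM in N/D and 3.68 and 16.4 TPM in N/D/S, a log2 fold change of −1.19 (SE 1.20). Leaving out the replicate 1 library of N/D or of N/D/S gave −0.23 and −0.25, and leaving out the replicate 2 library of either line gave −2.16 and −2.14. Within the replicate numbers the difference was −3.11 in replicate 1 and 0.72 in replicate 2. Tuba4a had 0.201 and 5.69 TPM in N/D and 4.27 and 4.14 TPM in N/D/S, a log2 fold change of 0.88 (SE 1.16). At so low a level the value depended on the pseudocount, with 1.18 at 0.5 TPM and 1.71 at 0.1 TPM. It was −0.36 without N/D replicate 1, the library in which many genes were listed at 0, and −0.27 with quantile normalization.

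**Figure D4:**
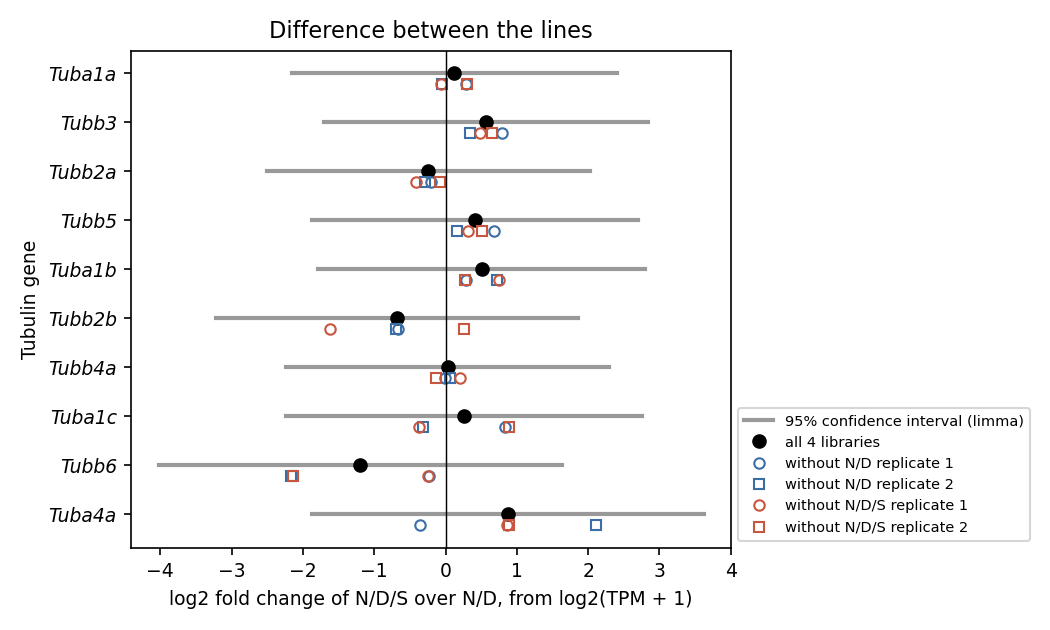
Log2 fold change (positive where N/D/S was higher) for each tubulin (black points) with the 95% confidence interval from limma (grey lines) and the value with each library left out (open symbols). Every interval includes 0, and the open symbols spread widest for Tuba4a, from −0.36 to 2.12.

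The libraries were also compared by replicate number. Tuba1a was higher in both replicate 1 libraries than in both replicate 2 libraries, and so were Tubb2b and Tuba1c, the latter at 371 and 462 TPM against 167 and 193 TPM. In all, 3 tubulins lay higher in both replicate 1 libraries (14.8% of all genes tested), and 1, Tubb4a, lay lower (14.7%), which is near the background at this number of genes. The summed markers of pluripotent cells, the oligodendrocyte lineage, astrocytes and mesenchyme given above also divided by replicate number, and their part in these levels was not tested. Within both replicate numbers, 5 tubulins were higher in the N/D/S library and 1 was lower, beside 15.9% and 17.9% of all genes tested. The 5 were Tuba1a, Tuba1b, Tuba1c, Tubb3 and Tubb5, and the 1 was Tubb2a. For Tubb3 the log2 difference was 0.44 in replicate 1 and 0.70 in replicate 2, and for Tuba1b it was 0.49 and 0.52. For Tubb2a it was −0.11 and −0.38, and for Tuba1a 0.14 and 0.11.

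The other tubulin genes were mostly silent or low. All 10 of them were in the files, 6 passed the filter on low values, and 0 were called in either direction by limma at an adjusted p under 0.05. Tubb4b, a broadly expressed beta tubulin that is also found in cilia, had 269 and 206 TPM in N/D and 173 and 256 TPM in N/D/S. With all other beta tubulins in the sum, the difference in the Tubb3 share of beta tubulin was 9.27 percentage points and that of Tubb2a −8.09. Tubg1, the gamma-tubulin that nucleates microtubules, had 146 and 129 TPM in N/D and 149 and 181 TPM in N/D/S, a log2 fold change of 0.26 (SE 0.96). Its brain-enriched paralog Tubg2 had 0.0512 and 28.6 TPM in N/D and 18.9 and 53.8 TPM in N/D/S. The log2 fold change of 2.56 for Tubg2 (SE 1.65) was 0.16 without N/D replicate 1. The delta and epsilon tubulins of centrioles were low and uneven, with Tubd1 between 0 and 12.4 TPM and Tube1 between 0.0198 and 39.9 TPM. Tuba8 stayed at or under 1.46 TPM, Tuba3a at or under 2.36 TPM, Tuba3b at or under 0.104 TPM and Tubal3 at or under 0.0112 TPM. Tubb1, the beta tubulin of platelets, was listed at 0 in every library.

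Tubulin must be folded before it can pair, by prefoldin, the CCT chaperonin and the tubulin cofactors. Of the 21 folding genes listed, 20 were found and tested, and 0 were called, with a median log2 fold change of −0.019, beside −0.05 for all genes with a mean of at least 100 TPM. Without N/D replicate 1 the medians were −0.19 and −0.07, and that of all genes tested was −0.29. By mean level, Cct7 led this list, at 396 and 741 TPM in N/D and 741 and 708 TPM in N/D/S, followed by Cct5 and Pfdn5. The chaperonin subunit Cct5 had 652 and 581 TPM in N/D and 678 and 377 TPM in N/D/S, and the prefoldin subunit Pfdn5 had 657 and 362 TPM against 349 and 701 TPM. Their groups overlapped. Without overlap, 3 of the 20 folding genes were lower in both N/D/S libraries and none was higher, beside 8.23% and 8.69% of all genes tested. They were Tbca, which holds beta tubulin on its way to the dimer, and the prefoldin subunits Pfdn6 and Vbp1, named after their values were seen. Tbca had 443 and 363 TPM in N/D and 328 and 294 TPM in N/D/S, a log2 fold change of −0.37 (SE 0.96), or −0.22 with N/D replicate 1 left out.

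All 8 genes of the gamma-tubulin ring complex were tested and 0 were called, with a median log2 fold change of −0.11 beside 0.26 for all genes tested. With N/D replicate 1 left out, these medians were −0.19 and −0.29. For every gene of this list the groups overlapped. Mzt2, Mzt1 and Tubgcp2 had the highest levels of this list, with 129 and 61.0, 74.0 and 72.2, and 21.6 and 35.1 TPM in N/D. In N/D/S they had 66.3 and 103, 79.4 and 34.9, and 45.5 and 26.3 TPM.

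Enzymes that modify tubulin mark microtubules by acetylation, polyglutamylation and detyrosination, largely on the carboxy-terminal tails. Of the 24 genes listed for modification and autoregulation, 19 were tested and 0 were called, with a median log2 fold change of 0.41. That median was −0.27 without N/D replicate 1, beside −0.29 for all genes tested, and in that library 12 of the 24 were listed at 0. Without overlap, 4 of the 19 were higher in both N/D/S libraries and 2 were lower, beside 8.69% and 8.23% of all genes tested. Atat1, the alpha-tubulin acetyltransferase, had 334 and 390 TPM in N/D and 435 and 391 TPM in N/D/S, a log2 fold change of 0.19 (SE 0.96), or 0.081 with N/D replicate 1 left out. Svbp, the partner of the vasohibins that remove the last residue of alpha tubulin, had 218 and 258 TPM in N/D and 197 and 270 TPM in N/D/S. Hdac6, a tubulin deacetylase named after its values were seen, had the largest log2 fold change of this list, 3.17 (SE 1.72), against an N/D replicate 1 library at 0. Without that library it was 0.48, with 40.7 TPM in N/D replicate 2 and 55.5 and 58.4 TPM in N/D/S.

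Ttc5 was listed because it reads the first residues of nascent tubulin chains when cells with surplus tubulin degrade tubulin mRNA. The coding bases it concerns are shown for the beta isotype with the highest mean over the 4 libraries, in capitals throughout.
Tubb3, first 12 coding bases: ATGAGGGAGATC
Ttc5 had 69.2 and 145 TPM in N/D and 136 and 106 TPM in N/D/S, a log2 fold change of 0.26 (SE 1.00) with overlapping groups. It was −0.27 with N/D replicate 1 left out.

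**Figure D5:**
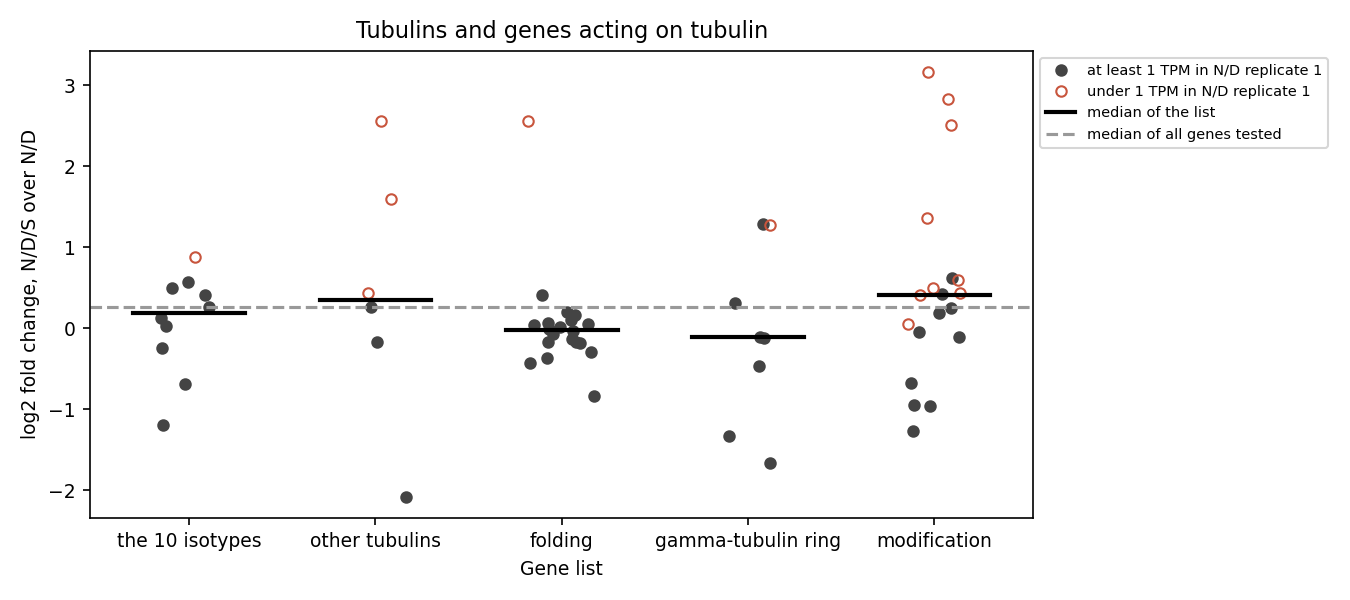
Log2 fold change (positive where N/D/S was higher) for the tested genes of each list, with filled points for genes at 1 TPM or more in N/D replicate 1, open points for those under 1 TPM there, a bar at each list's median and a dashed line at the median of all genes tested, 0.26. The highest point of every list but the gamma-tubulin ring is open, up to 3.17 for Hdac6, and the folding genes cluster around a median of −0.019.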

How the data were processed

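The authors pseudoaligned paired-end reads of poly-A selected RNA with kallisto 0.44.0 and deposited 1 TPM value per gene symbol and library. The processing notes name GRCm38, and the transcriptome release and the way transcripts were combined into genes are not given in the sources used here. The deposited TPM values are not counts, so depth is unknown and no counting interval is given. Here the 4 files were joined by symbol, 24 symbols turned into dates were left out, and those reaching 1 TPM in 2 or more libraries entered limma 3.58.1 (R 4.3.3) on log2(TPM + 1), 2 libraries against 2, with Benjamini-Hochberg adjustment at 0.05. Sums and shares were compared by exact permutation in Python 3.11.15. Sequences, lengths and words of 31 bases came from GENCODE M21, forward strand. Groups and replicate numbers came from the labels, and the numbers were not taken as pairs, since same-numbered libraries had a correlation of 0.02 after line means were removed. That value cannot settle whether replicate number had an effect. More genes tested were separated without overlap by replicate number (14.8% and 14.7%) than by line (8.69% and 8.23%).

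The members and gene lists were chosen with earlier results of these data known. Genes named are all tubulins, the 3 with the highest mean TPM of the folding, gamma-tubulin ring and modifying lists, St18, the 3 genes closest in profile to Tuba1a and to Tubb3, and those said to be named later. Gm3226 and Tubb2a-ps2 were named after their values were seen. Some sequences are not reported here.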

Additional observations from a re-analysis of the deposited data

How the results depend on the processing

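Each of 26 results was recomputed under the alternatives. Of the 254 values obtained, 232 kept direction and side of the threshold, 20 changed direction and 2 counts moved. Many of the 232 could not have changed. Another filter, the variance trend and the replicate block leave a log2 fold change as it was. The exact test cannot reach 0.05, and shares without overlap cannot reverse when a library is left out. The tally is therefore no measure of how stable the results are. Sums with near copies or without Tuba1a, and the joint shares, were chosen after the values were seen. The number of tubulins past the adjusted threshold was 0 under every alternative. The count over all genes was 0, but 6 with a variance trend in limma and 0 to 2373 with a library left out (2373 without N/D replicate 2, where N/D replicate 1 alone stood for N/D and was assumed to vary like the other line). Numbers of genes at an unadjusted p under 0.05 ranged from 8 to 377 in the other settings with all libraries, among them 8 with the main settings, 377 without a filter and 224 with the variance trend. With replicate number as a block, 0 genes and 0 tubulins passed and 9 genes had an unadjusted p under 0.05, and no call changed. For the changes of direction the cause was not tested.

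Tuba4a was at −0.27 with quantile normalization, Tubb4a at −0.019 with median-of-ratios factors and −0.19 when centred on genes of like length, and Tubb5 at −0.040 with that centring. With a library left out, log2 fold changes ranged from −0.059 to 0.31 for Tuba1a, −0.36 to 0.89 for Tuba1c, −0.36 to 2.12 for Tuba4a, −1.62 to 0.26 for Tubb2b and −0.14 to 0.20 for Tubb4a, and the summed level from −0.0046 to 0.32. Shares ranged from −0.27 to 2.76 percentage points for Tuba1b, −0.36 to 0.64 for Tuba1c, −0.014 to 0.021 for Tuba4a, −1.84 to 0.69 for Tubb4a and −0.021 to 0.014 for Tuba1a, Tuba1b and Tuba1c together. Tubb3 ranged from 0.45 to 0.60 with every library in and from 0.35 to 0.79 when each was left out, and Tubb2a from −0.31 to −0.21 and from −0.42 to −0.073. TPM keeps no counts, and the limit that depth sets on Tuba4a and Tubb6 was not assessed.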

Other observations

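Among 7789 genes other than tubulins with a mean of at least 10 TPM, the genes closest in profile to Tuba1a over the 4 libraries were Scamp5, Fbxo16 and Pgs1. The root-mean-square difference of their centred log2(TPM + 1) values from those of Tuba1a was 0.033, 0.039 and 0.044. Scamp5, a secretory carrier membrane protein of synaptic vesicles, had 122 and 92.2 TPM in N/D and 137 and 105 TPM in N/D/S. The genes closest to Tubb3 were Gm7666, Ddx56 and Gpi1, at 0.055, 0.079 and 0.087. Gpi1, the glycolytic enzyme glucose-6-phosphate isomerase, had 428 and 346 TPM in N/D and 589 and 475 TPM in N/D/S. Likeness over 4 libraries says nothing of shared function or control.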
